A study of Mus musculus with 4 samples.

Results

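The postsynaptic density is the protein layer beneath the membrane of an excitatory synapse. It was followed here through 31 genes that encode its scaffolds, its calcium and calmodulin dependent enzymes and its regulators of actin and small G proteins. A gene was taken from the array's probe sets that carried its symbol alone, and, where there were several, from the one brightest on average. All 31 genes were found, on 35 probe sets, among 19938 named genes on 35556 probe sets. Of the 31 genes, 30 reached 8.41 on the log2 scale on at least 1 array, the median of all probe sets with 1 symbol, and Dlgap2 did not. The 31 genes were listed by function and not by their values, but with earlier results of these arrays known.

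RNA came from dissected pontine nuclei of ICR mice taken before birth (embryonic day 17.5, E17.5) or on postnatal day 1 (P1), day 5 (P5) or day 14 (P14). A single pool and a single array stood for each age, made from 27 mice at E17.5, 16 at P1, 13 at P5 and 12 at P14, and the labels give no treatment or genotype beyond the strain. The values are log2 array signals as normalised by the authors. A single array per age allows no test, and a difference of 1 on the log2 scale (2-fold) was used as a size threshold.

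The pontine nucleus holds glutamatergic neurons that receive the cerebral cortex and send mossy fibres to the cerebellum. At an excitatory synapse, scaffolds of the Dlg family hold glutamate receptors, Dlgap proteins link them to Shank proteins, and Homer proteins connect Shank to metabotropic receptors and to the actin skeleton. Calcium entering through NMDA receptors acts through calmodulin on the kinase CaMKII and on the phosphatase calcineurin. Exchange factors and activating proteins for small G proteins then shape the dendritic spine.

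The labelled ages do not order the arrays by likeness, so the later arrays are called by their labels throughout. Whether the labels P5 and P14 were exchanged could not be settled from these files, so a value of either array may not belong to the age it is labelled with. Over 10901 genes past the level filter, the E17.5 array correlated at r = 0.968 with P1, 0.754 with labelled P5 and 0.909 with labelled P14 (Pearson, across genes of 1 array pair, which are not replicates). The labelled P14 signal fell between the P1 and labelled P5 signals in 60.5% of all these genes, and in 19 of the 30 scaffolds and kinases. P1 against E17.5 is the comparison that uses neither later array for its differences. Of 11 markers of pontine glutamatergic neurons, 9 reached 8.41 on each array, though not always the same ones, and Lhx9 reached it on none. Barhl1, a homeobox factor of rhombic lip neurons, had signals of 12.23 at E17.5, 11.79 at P1, 10.83 for labelled P5 and 11.61 for labelled P14. Slc17a7, a vesicular glutamate transporter, ran the other way, with signals of 8.16 at E17.5, 9.38 at P1, 12.90 for labelled P5 and 11.36 for labelled P14. Both were chosen here with their values known. Of the 10 markers past the filter, 9 were lower and 1 higher at P1 than at E17.5, with a median difference of −0.36. For labelled P5 against P1, 8 were lower and 2 higher, with a median of −0.82.

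Markers of other cell types differed on the later arrays too, and the tissue is bulk RNA, in which fewer cells of a type and less RNA per cell cannot be told apart. All 9 named myelin markers exceeded P1 by 2-fold or more on the array labelled P5, by a median of 4.83, and their summed signal stood at 11.24, 11.91, 15.92 and 13.05 (log2) in the order of ages. Of 10 astrocyte markers 6 exceeded P1 by 2-fold or more on the array labelled P5, with summed signals of 13.44, 14.27, 15.29 and 14.89 in the same order of ages. Of 8 markers of immature neurons 7 were at least 2-fold lower there, with a median difference of −2.91 and summed signals of 15.55, 15.28, 13.18 and 14.56. The 8 general neuron markers had summed signals of 15.34, 15.29, 15.82 and 15.63, and all 8 stood above 8.41 on every array. None of the myelin, astrocyte or general neuron markers lay under the lower quartile of the array labelled P5, and 1 of the immature neuron markers did. At P1, 6 of the 9 myelin and 2 of the 10 astrocyte markers lay under 8.41, and 2 myelin markers under that array's lower quartile. On the array labelled P5, 3 immature neuron markers lay under 8.41, so the sizes of these differences are inexact. The part of these cell types in the differences below was not tested.

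The scaffolds and kinases varied somewhat more over the arrays than genes in general. All 30 genes past the filter already reached 8.41 at E17.5. The median range over the 4 arrays was 0.695 on the log2 scale for the 30 genes past the filter and 0.53 for all genes. A range of at least 2-fold was seen in 9 of the 30 genes, against 19.4% of all genes. These were Camkv (2.74), Baiap2 (1.73), Lrrc7 (1.40), Shank2 (1.36), Dlg1 (1.35), Camk2a (1.24), Nrgn (1.19), Iqsec1 (1.15) and Homer2 (1.11). Without the array labelled P5, Nrgn and Homer2 still had such a range, 2 of 30 genes against 5.99% of all genes. Without the array labelled P14, 7 of 30 had one against 18.6%. At the other end, 11 of the 30 genes had a range under 0.5 (36.7%, against 46.0% of all genes), among them Ppp1r9a (0.12), Dlgap1 (0.16), Dlg2 (0.21) and Begain (0.21).

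**Figure D1:**
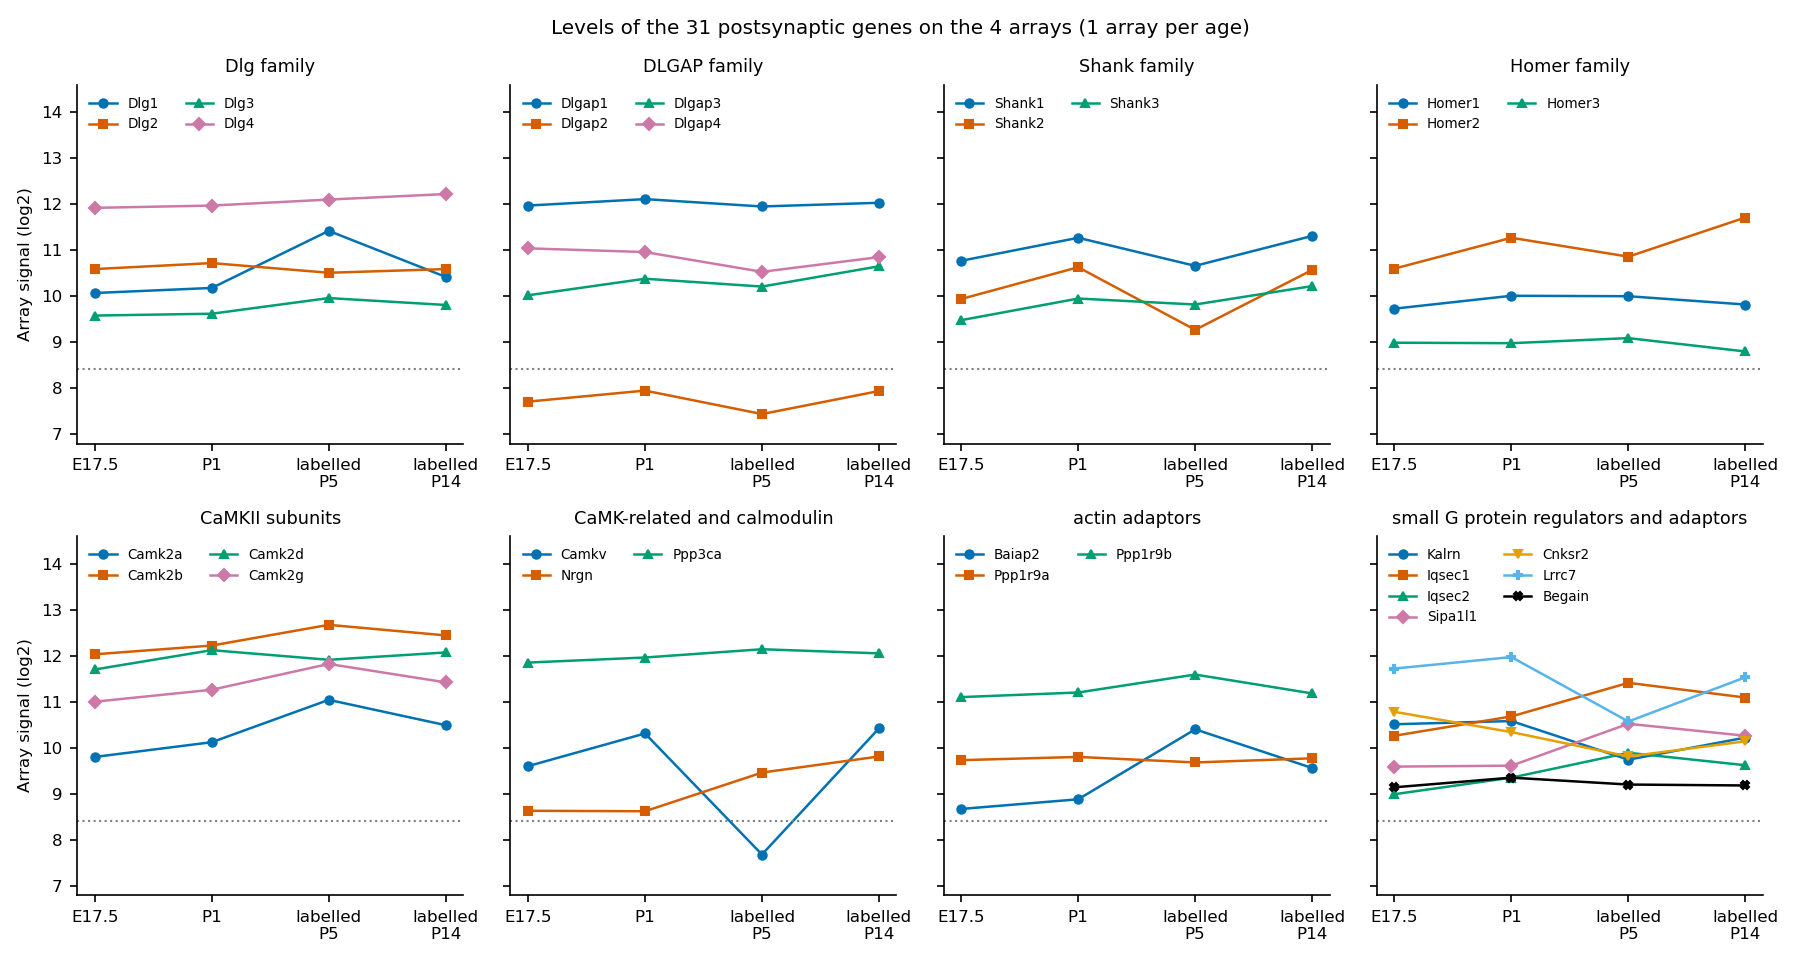
Array signal (log2, vertical axis) of the 31 genes on the 4 arrays in the order of their labelled ages (horizontal axis), 1 panel per family and 1 point per array; the dotted line is the level filter at 8.41. Ranges run from 0.12 (Ppp1r9a) to 2.74 (Camkv), and Camkv dips to 7.68 and Baiap2 peaks at 10.40 on the array labelled P5; levels of different genes come from different probe sets and are not to be compared.

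Around birth the scaffolds and kinases were slightly higher at P1 than at E17.5, none by 2-fold. Of the 30 genes, 26 were above 0 and 4 below, with a median difference of 0.20, whereas 38.5% of all genes were above 0 and their median was −0.06. Of the 30 genes 0 were at least 2-fold higher, against 0.826% of all genes, and 0 at least 2-fold lower, against 0.275% (1.1% either way). The only error the files allow is how far probe sets of 1 gene part from each other, a standard deviation of 0.12 for this comparison over 645 genes, which holds probe noise and not the spread between pools of mice. By that measure 13 of the 30 genes were higher by 0.24 (2 such deviations) or more and 1, Cnksr2, was lower by as much, together 14 of 30 beside 36.1% of all genes. Some lists of cell type markers differed in this comparison as well. Medians were 0.84 for astrocytes (4 of 10 at least 2-fold higher), 0.80 for oligodendrocyte precursors, 0.63 for microglia and −0.74 for immature neurons. They were −0.36 for pontine glutamatergic neurons and −0.89 for the 4 GABAergic and glycinergic markers past the filter. Over all 7 named GABAergic and glycinergic markers the median was −0.65, and 6 of them lay under 8.41 at P1. Of the 8 microglia markers, 6 lay under 8.41 at E17.5 and 6 at P1. Medians of the remaining lists were −0.02 for general neurons, −0.08 for endothelium, 0.05 for housekeeping genes and 0.21 for myelin. Past the filter, 3 monoaminergic and cholinergic markers had a median of −0.08, 3 cerebellar markers 0.33, and 1 red blood cell marker differed by −0.48. The part of these cell types in the members' differences was not tested. The largest differences were those of Camkv (0.71), Shank2 (0.69), Homer2 (0.67), Shank1 (0.50) and Shank3 (0.47).

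The array labelled P5 held the widest differences, and they ran both ways. Against P1, 2 of the 30 genes were at least 2-fold higher, a share near the 8.96% of all genes, and 3 at least 2-fold lower, against 3.94% of all genes. Of the 30 genes, 14 were above 0 and 16 below, whereas 53.7% of all genes were above 0. The members' median was −0.065 beside 0.05 for all genes. When all probe sets of a gene were averaged the members' median was 0.03, so it has no settled sign. The spread between probe sets was 0.18 for this comparison.

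The 2 genes higher by 2-fold or more for labelled P5 were Baiap2 and Dlg1. Baiap2, which encodes IRSp53, an adaptor that binds Shank and bends the membrane over actin, had signals of 8.67 at E17.5, 8.88 at P1, 10.40 for labelled P5 and 9.56 for labelled P14. Both later arrays were above both earlier ones, by 1.52 (2.87-fold) for labelled P5 against P1 and by 0.68 for labelled P14 against P1. Dlg1, a membrane-associated guanylate kinase of synapses and of epithelial junctions, had signals of 10.07 at E17.5, 10.18 at P1, 11.42 for labelled P5 and 10.42 for labelled P14. It differed by 1.24 (2.36-fold) for labelled P5 against P1 and by 0.24 for labelled P14 against P1.

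The 3 genes at least 2-fold lower on the array labelled P5 were Camkv, Lrrc7 and Shank2. Camkv, a kinase-like protein without kinase activity that binds calmodulin, had signals of 9.60 at E17.5, 10.31 at P1, 7.68 for labelled P5 and 10.42 for labelled P14. The array labelled P5 alone was low. Since 7.68 is under the level filter, the difference of −2.63 against P1 is inexact, and so is the range of Camkv. A further 32 probe sets list Camkv together with other genes and were not used.

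Lrrc7, which encodes densin, a leucine-rich scaffold that binds CaMKII, had signals of 11.72 at E17.5, 11.97 at P1, 10.57 for labelled P5 and 11.53 for labelled P14. It differed by −1.40 (2.64-fold lower) for labelled P5 against P1 and by −0.44 for labelled P14 against P1. Shank2, a master scaffold that joins Dlgap and Homer proteins, had signals of 9.94 at E17.5, 10.63 at P1, 9.27 for labelled P5 and 10.57 for labelled P14. It differed by −1.36 (2.57-fold lower) for labelled P5 against P1 and by −0.06 for labelled P14 against P1. Shank2 and Camkv were thus lowest on the array labelled P5, with labelled P14 near P1.

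**Figure D2:**
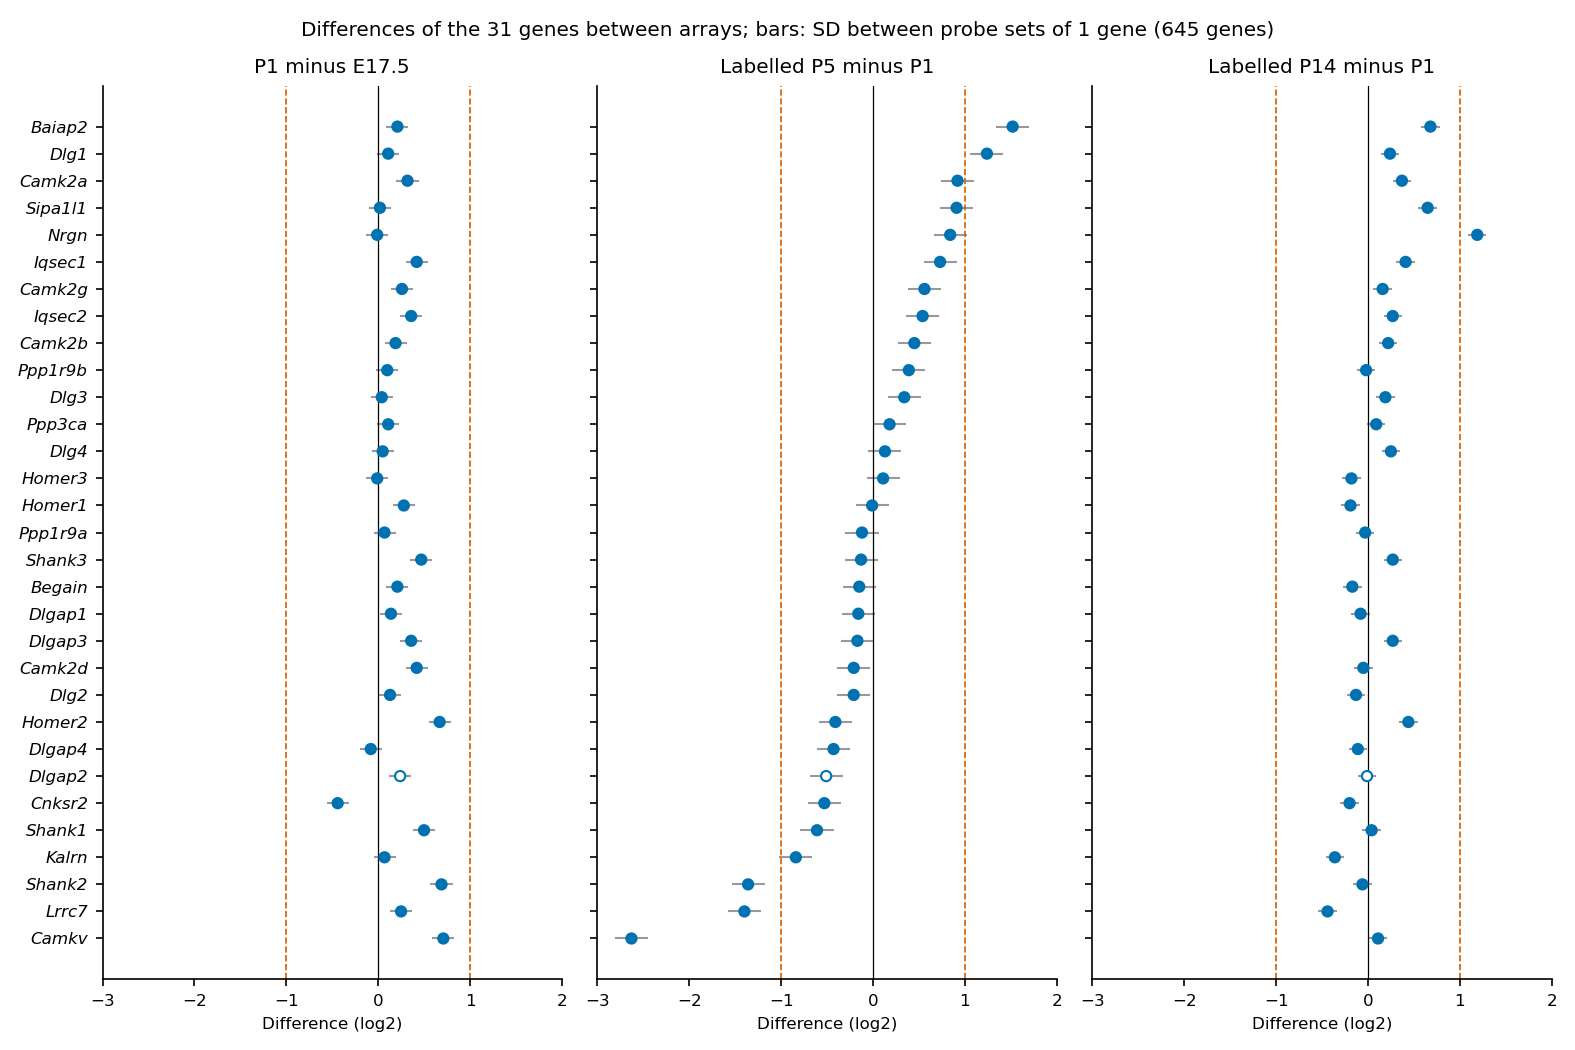
Difference in array signal (log2, horizontal axis) of each of the 31 genes (vertical axis, ordered by the middle panel) for P1 minus E17.5, labelled P5 minus P1 and labelled P14 minus P1; bars are the standard deviation between probe sets of 1 gene over 645 genes, dashed lines mark 2-fold and the open circle is Dlgap2, under the level filter. Camkv, Lrrc7 and Shank2 lie beyond −1 and Baiap2 and Dlg1 beyond 1 in the middle panel, and Nrgn alone lies beyond 1 in the right panel.

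Promoter sequence is shown for the 3 of these 5 genes that have exactly 1 start site in RefSeq's promoter table (GRCm38.p6), to set a gene that was higher on the array labelled P5 beside the 2 that were lower. Each window runs from 250 bases before the start to 50 after it, 5′ to 3′ on the gene's strand. Capitals mark GC boxes (GGGCGG, both strands), E boxes of the letters CAGCTG (both strands) and TATA boxes (TATAAA, the gene's strand).
Baiap2, chr11:119942842-119943141, plus strand: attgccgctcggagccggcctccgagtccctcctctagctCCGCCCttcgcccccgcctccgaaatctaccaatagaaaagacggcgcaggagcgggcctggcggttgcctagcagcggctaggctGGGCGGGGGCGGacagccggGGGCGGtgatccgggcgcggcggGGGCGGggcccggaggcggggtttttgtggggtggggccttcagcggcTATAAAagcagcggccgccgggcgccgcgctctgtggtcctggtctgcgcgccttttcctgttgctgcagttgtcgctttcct
Camkv, chr9:107935670-107935969, plus strand: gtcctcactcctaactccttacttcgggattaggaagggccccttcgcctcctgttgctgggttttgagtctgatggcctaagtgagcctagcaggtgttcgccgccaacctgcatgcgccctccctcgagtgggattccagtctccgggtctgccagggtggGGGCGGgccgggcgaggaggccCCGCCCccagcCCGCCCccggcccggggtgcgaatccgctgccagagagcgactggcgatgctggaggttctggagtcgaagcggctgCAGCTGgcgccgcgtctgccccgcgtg
Lrrc7, chr3:158561712-158562011, minus strand: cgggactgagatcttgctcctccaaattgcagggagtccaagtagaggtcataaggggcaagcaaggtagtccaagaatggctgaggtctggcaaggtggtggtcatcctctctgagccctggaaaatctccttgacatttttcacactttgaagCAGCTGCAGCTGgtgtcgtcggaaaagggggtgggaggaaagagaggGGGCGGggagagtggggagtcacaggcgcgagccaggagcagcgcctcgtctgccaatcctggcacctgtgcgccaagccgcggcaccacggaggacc
The Baiap2 window held 5 GC boxes, 1 TATA box and no E box. The Camkv window held 3 GC boxes and 1 E box, and the Lrrc7 window 1 GC box and 2 E boxes. Over all 32851 windows, 35.7% held a GC box, 16.3% this E box and 8.3% a TATA box. For the 25 members in the table, 45 windows were listed, of which 27 held a GC box (60.0%), 12 the E box (26.7%) and 3 the TATA box (6.7%). Their median GC content was 64.0%, against 52.7% for all windows. Windows of 1 gene can overlap, and a match to these letters is a description of the sequence and not evidence that a factor binds there.

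The membrane-associated guanylate kinases of the Dlg family, apart from Dlg1, had ranges under 0.5. Dlg4, which encodes the scaffold that anchors NMDA receptors and is the classic marker of the postsynaptic density, had signals of 11.92 at E17.5, 11.97 at P1, 12.10 for labelled P5 and 12.22 for labelled P14, a range of 0.30. Dlg2, its close relative, stood at 10.59, 10.72, 10.51 and 10.59 in the same order of ages. Dlg3, which is prominent at young synapses, stood at 9.58, 9.62, 9.96 and 9.81. For labelled P5 against P1 the 4 genes ran between −0.21 (Dlg2) and 1.24 (Dlg1).

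The Dlgap scaffolds, which bind the guanylate kinase domain of Dlg proteins, had no range of 2-fold. Dlgap1 had signals of 11.97 at E17.5, 12.11 at P1, 11.95 for labelled P5 and 12.03 for labelled P14. Its other probe set stood at 11.15, 11.22, 11.52 and 11.33, so that the difference of labelled P5 against P1 was −0.16 by the first and 0.30 by the second, and Dlgap1 has no settled direction. Dlgap3 stood at 10.02, 10.38, 10.21 and 10.65, and Dlgap4 at 11.04, 10.96, 10.53 and 10.85. Dlgap4 was thus lowest on the array labelled P5, with a difference of −0.43 against P1. Dlgap2 lay between 7.44 and 7.95 on all arrays, under the level filter.

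The Shank genes shared a shape: each was higher at P1 than at E17.5, and lower for labelled P5 than for P1 and labelled P14. Shank1 had signals of 10.77 at E17.5, 11.27 at P1, 10.66 for labelled P5 and 11.31 for labelled P14. Shank3, the member whose loss causes a human autism syndrome, stood at 9.48, 9.95, 9.82 and 10.22. For labelled P5 against P1 the differences were −1.36 for Shank2, −0.61 for Shank1 and −0.13 for Shank3, the last within the spread between probe sets. The other 2 probe sets of Shank2 had signals of 8.37 and 9.52 for labelled P5, against 9.73 and 10.06 at P1, both lower there as well. Their differences of −1.36 and −0.54 show that the size depends on the probe set.

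Of the Homer genes, whose products tether metabotropic glutamate receptors, Homer2 had a range of at least 2-fold and the other 2 did not. It had signals of 10.60 at E17.5, 11.27 at P1, 10.86 for labelled P5 and 11.71 for labelled P14. Its second probe set followed the same order, at 10.09, 10.85, 10.37 and 11.18. Homer2 differed by 0.44 (1.36-fold) for labelled P14 against P1 and by −0.41 for labelled P5 against P1. Homer1 stood at 9.73, 10.01, 10.00 and 9.82, and Homer3 at 8.99, 8.98, 9.09 and 8.80. The short activity-induced form of Homer1 and its long forms are not separated in these gene-level values.

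**Figure D3:**
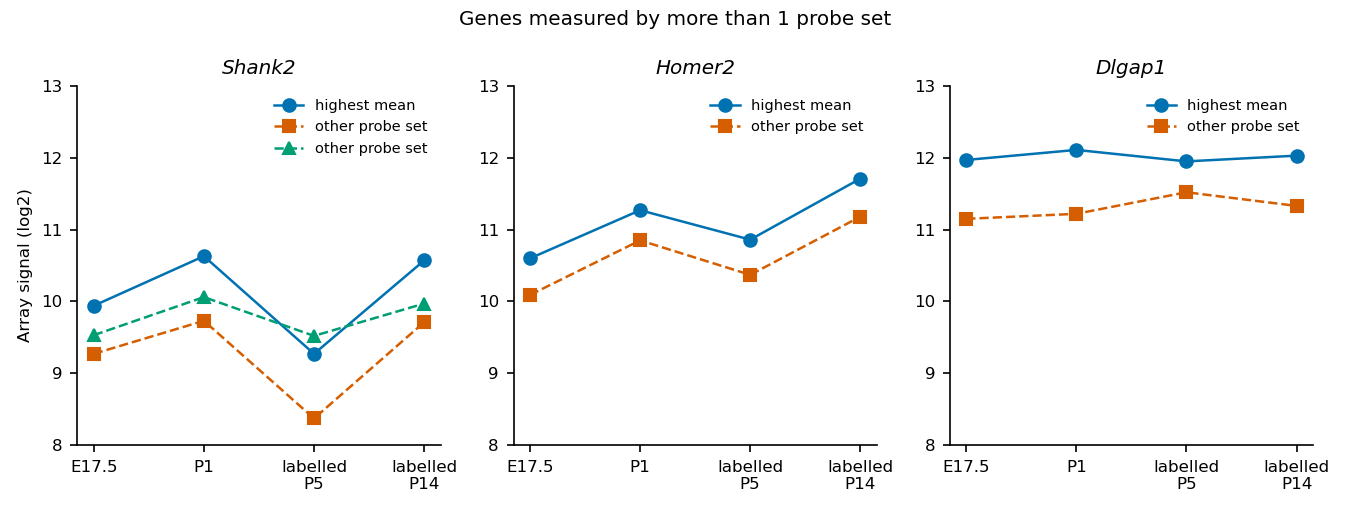
Array signal (log2, vertical axis) of every probe set of Shank2, Homer2 and Dlgap1, the 3 genes with more than 1, on the 4 arrays (horizontal axis); solid lines are the probe set with the highest mean. The probe sets of Shank2 and of Homer2 move together, while those of Dlgap1 run opposite ways between P1 and labelled P5 and lie closest there, at 11.95 and 11.52.

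The CaMKII subunits did not all share their order of arrays. CaMKII is a ring of related subunits that stays active after a calcium signal by phosphorylating itself. Camk2a, the forebrain-rich alpha subunit, had signals of 9.80 at E17.5, 10.12 at P1, 11.04 for labelled P5 and 10.49 for labelled P14. The difference of labelled P5 against P1 was 0.92 (1.89-fold), short of the size threshold. Camk2b, the actin-binding beta subunit, stood at 12.03, 12.22, 12.67 and 12.44, and Camk2g, the gamma subunit, at 11.00, 11.26, 11.82 and 11.42. These 3 subunits shared their order, with E17.5 lowest, P1 next, labelled P14 above it and labelled P5 highest. Camk2d, the delta subunit, differed in that order and stood at 11.70, 12.12, 11.91 and 12.07, highest at P1. Its difference of −0.21 for labelled P5 against P1 was smaller than 2 standard deviations between probe sets (0.35).

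Nrgn was the one gene that stood 2-fold or more above P1 on the array labelled P14. Neurogranin, its product, holds calmodulin near the membrane and releases it as calcium rises. Nrgn had signals of 8.63 at E17.5, 8.62 at P1, 9.46 for labelled P5 and 9.81 for labelled P14. It differed by 1.19 (2.28-fold) for labelled P14 against P1 and by 0.84 for labelled P5 against P1, so that both later arrays were above both earlier ones. Among all genes, 76 of 10901 were as far above 0 for labelled P14 against P1, Nrgn included. Ppp3ca, the catalytic alpha subunit of calcineurin, stood at 11.85, 11.96, 12.14 and 12.05 in the order of ages.

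For labelled P14 against P1, the 30 genes had a median difference of 0.10 beside −0.01 for all genes. Of the 30, 17 were above 0 and 13 below, beside 47.3% of all genes above 0. One gene of 30 was at least 2-fold higher, against 1.37% of all genes, and 0 at least 2-fold lower, against 0.101% (1.47% either way). The spread between probe sets was 0.10. Baiap2 (0.68) and Sipa1l1 (0.65) followed Nrgn, and Lrrc7 (−0.44) and Kalrn (−0.36) were lowest. This comparison and that of labelled P5 against P1 share the P1 array.

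Between the later arrays, labelled P14 against labelled P5, 2 of 30 genes were at least 2-fold higher, against 2.16% of all genes, and 1 at least 2-fold lower, against 4.5%. Camkv stood at 10.42 on the array labelled P14 and 7.68 on the array labelled P5, and Shank2 differed by 1.30 (2.46-fold). Dlg1 differed by −1.0, exactly at the size threshold, and it missed the threshold at −0.94 after centring and at −0.96 after quantile normalisation of the arrays. Lrrc7, at 0.96, passed it under both.

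**Figure D4:**
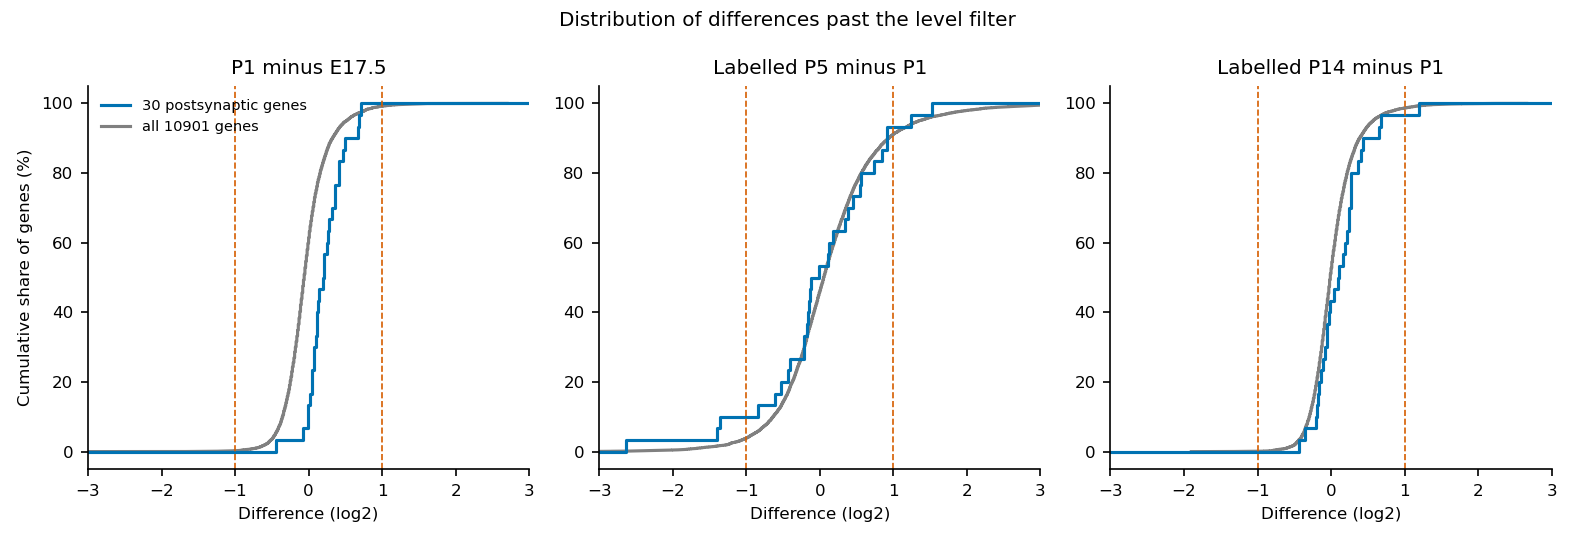
Cumulative share of genes (%, vertical axis) by difference in array signal (log2, horizontal axis) for the 30 scaffolds and kinases past the filter (blue) and all 10901 genes (grey), in 3 comparisons; dashed lines mark 2-fold. For P1 minus E17.5 the blue line lies to the right of the grey one except at the upper end, with a median of 0.20 against −0.06. The highest blue gene there is Camkv at 0.71, which 2.58% of all genes reach or exceed. For labelled P5 minus P1, 3 of the 30 blue genes lie below −1, and the grey line reaches farther down than the blue one.

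The adaptors between synapse and actin gave a mixed picture beside Baiap2. Ppp1r9a (neurabin) and Ppp1r9b (spinophilin) bind actin and the phosphatase PP1. Ppp1r9a had signals of 9.73 at E17.5, 9.80 at P1, 9.68 for labelled P5 and 9.77 for labelled P14, the narrowest range of all 31 genes. Ppp1r9b stood at 11.10, 11.20, 11.59 and 11.18, with the array labelled P5 0.39 above P1.

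Among the 7 regulators of small G proteins and adaptors, 3 were highest on the array labelled P5. Kalrn, Cnksr2 and Lrrc7, the last described above, were lowest there. Iqsec1 and Iqsec2, exchange factors for Arf proteins, shared their order of arrays. Iqsec1 had signals of 10.26 at E17.5, 10.68 at P1, 11.41 for labelled P5 and 11.09 for labelled P14, and Iqsec2 at 8.99, 9.35, 9.89 and 9.62. Sipa1l1, a GTPase-activating protein for Rap that enlarges spines, stood at 9.59, 9.61, 10.52 and 10.26, with both later arrays above both earlier ones. Its difference was 0.91 (1.88-fold) for labelled P5 against P1. Kalrn, an exchange factor for Rac in spines, stood at 10.51, 10.58, 9.74 and 10.22. It differed by −0.84 (1.79-fold lower) for labelled P5 against P1. Cnksr2, a scaffold of Ras signalling, stood at 10.78, 10.34, 9.81 and 10.14, highest at E17.5. Cnksr2 had the lowest difference of the 30 genes for P1 against E17.5, at −0.44. Begain, a partner of Dlg4, stood at 9.14, 9.35, 9.20 and 9.18.

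Other postsynaptic genes, in 4 lists of 108 genes, also ran both ways on the array labelled P5. Of these, 98 were named on the array and 95 passed the filter, of which 10 stood 2-fold or more above P1, beside 8.96% of all genes, and 11 as far below it, beside 3.94% of all genes. Their median was −0.01. Among the 11 lower genes, Dclk1 and Srgap2 lay exactly at the size threshold, at −1.0. The same shares of all genes stand behind the counts of the single lists. Among 23 scaffolds and adaptors, 5 were higher and 2 lower. Arc, an activity-induced gene that drives AMPA receptor uptake, had signals of 7.91 at E17.5, 8.12 at P1, 10.17 for labelled P5 and 8.32 for labelled P14. Arc passed the filter, and so entered these counts, only through the array labelled P5. Its other values lay under 8.41, so the size of its difference is inexact. Lin7b differed by 1.77 for labelled P5 against P1. Lin7c, a relative of Lin7b, differed by −1.20 and Grip1, an AMPA receptor adaptor, by −1.19.

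Of 32 calmodulin, kinase and phosphatase genes, 1 was higher and 4 were lower by 2-fold or more for labelled P5 against P1. Camk1d, a calcium-dependent kinase, differed by 1.61 and Cdk5, a kinase of neurons, by 0.70. Gap43, a growth cone protein that like neurogranin binds calmodulin, differed by −1.82 and Prkar2b, a regulatory subunit of protein kinase A, by −1.53. Gap43 had signals of 12.45 at E17.5, 12.62 at P1, 10.80 for labelled P5 and 12.51 for labelled P14. For labelled P5 against P1, Nrgn and Gap43 thus lay on opposite sides of 0.

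Of 21 small G protein regulators, 4 were higher and 3 lower by that size for labelled P5 against P1. Rasgrp1, an exchange factor for Ras, had signals of 8.72 at E17.5, 9.77 at P1, 12.86 for labelled P5 and 10.10 for labelled P14, a difference of 3.09 (8.51-fold) for labelled P5 against P1. Sipa1l2, a relative of Sipa1l1, differed by 1.93. Psd, an exchange factor for an Arf protein in spines, differed by −1.14 and Rac3 by −1.03. Of 19 genes of actin and spine structure none was at least 2-fold higher and 2 were lower. Dbn1 (drebrin), an actin-binding protein of spines and growth cones, differed by −1.62. Ddn (dendrin) stood at 7.46 on the array labelled P5, against 8.56 at P1. The value of 7.46 is under 8.41, so the size of this difference is inexact. Limk1 and Actn4 had the largest positive differences, at 0.65 and 0.64.

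**Figure D5:**
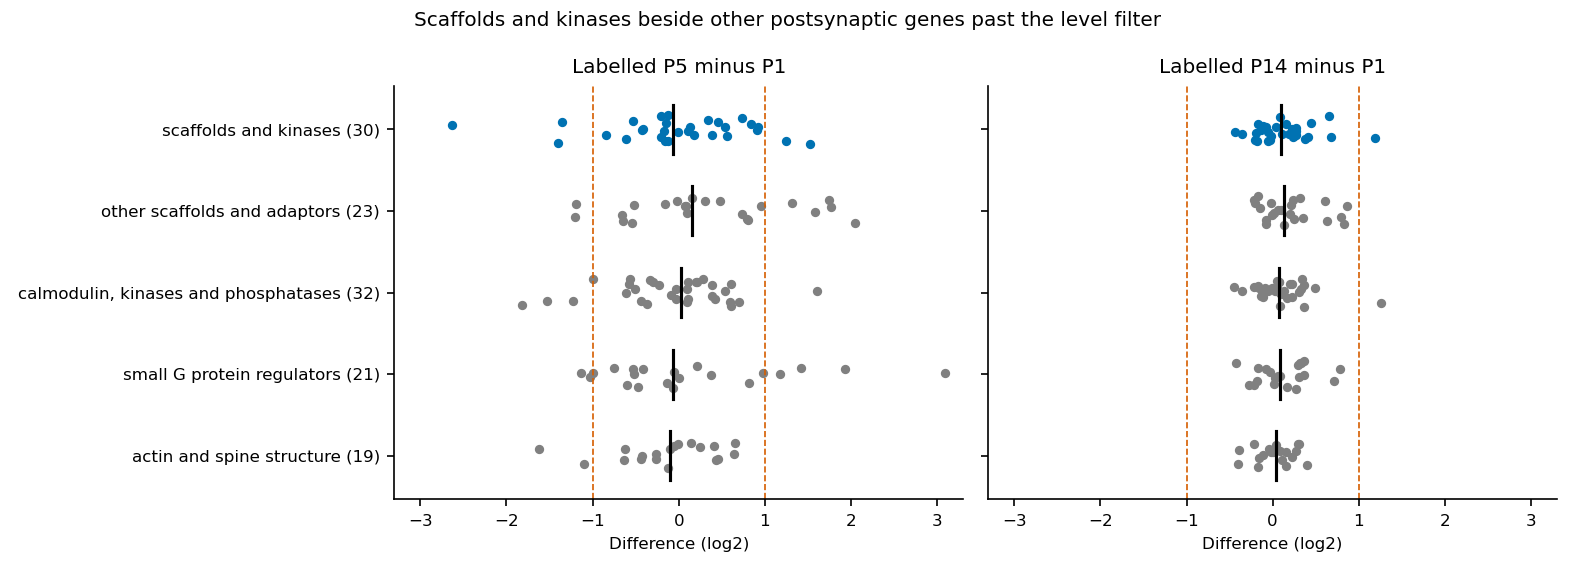
Difference in array signal (log2, horizontal axis) for labelled P5 minus P1 and labelled P14 minus P1, 1 point per gene past the level filter, for the 30 scaffolds and kinases (blue) and 4 lists of other postsynaptic genes (grey), with the number of genes in brackets; black bars are medians and dashed lines mark 2-fold. Points spread beyond 2-fold on both sides in the left panel in most lists, and 1 scaffold or kinase, Nrgn, and 1 other gene, Camk1d, do so in the right panel.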

How the data were processed

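RNA of 4 pools, 1 per age, was measured on 4 Affymetrix arrays after Trizol and column extraction and biotin labelling of sense-strand cDNA, per the labels. The authors deposited 1 normalised log2 value per probe set. The submitters' processing notes name Affymetrix Expression Console; how it summarised and normalised the probes, and on which build, is not given in the sources used here. That the scale is log2 follows from the range of values, 1.84 to 14.72.

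Gene names came from the platform's annotation, in which 21789 carried 1 symbol, 1621 several, and 12146 were not listed. Each of 19938 genes took its probe set with the highest mean, and 10901 genes reached 8.41 (the median of the single-symbol probe sets) on at least 1 array. All 31 members matched RefSeq's gene table by identifier and symbol. Values were not rescaled. Differences between arrays were counted at 2-fold, with no test, since 1 array per age leaves no replicate spread; the number of arrays limits the precision. Counting was tested on simulated data with changes well beyond the size threshold, in genes well above the level filter. Differences near the threshold and values near the filter were not covered by it. Alternatives varied the probe set rule, level filter, size threshold, scaling and a floor.

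The members, lists and rules were chosen with earlier results of these data known, and the promoter motifs after the sequences were read. All members are named; from each of the 4 lists of other postsynaptic genes, the 2 highest and the 2 lowest differences for P5 against P1 are named. Marker lists were given as a whole, apart from Barhl1, Lhx9 and Slc17a7. Lists of markers for oligodendrocyte precursors, microglia, endothelium, red blood cells, GABAergic and glycinergic, cerebellar, monoaminergic and cholinergic neurons and housekeeping genes were also computed. In that order, their median differences for P5 against P1 were 1.15, 0.97, 0.46, 0.25, −0.34, 0.04, −0.99 and −0.11, and that of pontine glutamatergic neurons was −0.82. These medians are over genes past the filter, in the same order 7, 7, 6, 1, 4, 3, 3 and 6 genes, and 10 for pontine glutamatergic neurons. That of red blood cells is thus a single gene. Over all 7 named monoaminergic and cholinergic markers the median was −0.64. Protein sequences were not used here. Python 3.11.15, numpy 2.4.6 and pandas 2.3.3 were used.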

Additional observations from a re-analysis of the deposited data

How the results depend on the processing

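Single member differences were recomputed under 3 alternatives, which kept the sign of each one of at least 2-fold. Of the 124 member differences, centring and quantile normalisation each kept all within the spread between probe sets, and averaging all probe sets kept 120. Averaging could change only Shank2, Homer2 and Dlgap1, the genes with more than 1 probe set, and the 4 differences that moved were of Shank2 and Dlgap1. Centring shifts every difference of a comparison by the same amount, here smaller than that spread, so it could move no single member beyond it. With a 1.5-fold threshold, 3 of 30 members were higher for P1 against E17.5 (3.835% of all genes), 6 higher (19.228%) and 5 lower (11.302%) for labelled P5 against P1, 3 higher (4.697%) for labelled P14 against P1, and 5 higher (7.155%) and 2 lower (12.494%) for labelled P14 against labelled P5. With a 3-fold threshold they were 0 higher (3.596%) and 1 lower (1.174%) for labelled P5 against P1, 0 higher (0.183%) for labelled P14 against P1, and 1 higher (0.505%) and 0 lower (1.596%) for labelled P14 against labelled P5. For labelled P14 against labelled P5, 1 member was higher when both arrays had to reach the filter level, which removed Camkv, and 0 were lower after centring or quantile normalisation, since Dlg1 lay at the threshold. The median for labelled P5 against P1 ran between −0.175 (centring) and 0.03 (averaged probe sets). Choosing the filter and the probe sets from the 2 arrays of a comparison alone, an alternative chosen after seeing the data, changed no count. No paired analysis was possible because each age has 1 array.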

Other observations

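Of the 95 other postsynaptic genes past the level filter, 6 were at least 2-fold higher at P1 than at E17.5, against 0.826% of all genes, and they were picked here after their values were seen. They were Ptk2b (1.58), a calcium-activated tyrosine kinase, the Ras and Rap exchange factors Rasgrp2 (1.57), Rasgrf2 (1.54) and Rasgrp1 (1.05), the Arf exchange factor Iqsec3 (1.17) and the calmodulin-binding protein Pcp4 (1.0). Rasgrf2 stood at 9.46 at P1 and 7.92 at E17.5; the E17.5 value lay under 8.41, so the size is inexact. Pcp4 lay at the size threshold. None of the 95 genes was at least 2-fold lower in that comparison.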
